A study of Rattus norvegicus with 18 samples.

Results

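The Zfp-named zinc finger genes of cultured rat nucleus pulposus cells are described here, the nucleus pulposus being the gelatinous core of the intervertebral disc. They were taken as every row of the deposited count table whose symbol is Zfp followed by digits only, leaving out Zfp36, whose product is a regulator of mRNA decay with another kind of zinc finger. The rule found 235 genes of 33898 rows, under 232 distinct symbols, since Zfp82, Zfp84 and Zfp260 each stood on 2 rows. Of these, 206 had enough counts to be tested. The remaining 29 reached at most 19 counts in any library, and 9 of them had 0 counts in all 18 libraries. The cells came from Sprague Dawley rats aged 8 weeks and were grown in medium with serum. Each compound was given for 24 hours. The compounds were PDS, Phen-DC3 and Braco-19, all of them ligands of G-quadruplexes, the stacked folds that runs of guanines form in DNA or RNA. There were 6 groups of 3 libraries, 1 control group for each compound. The PDS and Phen-DC3 control groups are named for their compound. The third control group carries no compound in its title, is called the unnamed control here, and by elimination serves as the control of Braco-19. The labels state neither the doses nor what the control cells received. They also do not say whether the libraries of a group came from separate cultures or animals, so p-values measure only the spread between libraries, which may be technical.

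Most Zfp-named proteins carry tandem C2H2 zinc fingers, small zinc-holding loops that read DNA in short steps. Many also carry a KRAB domain, which recruits the co-repressor Trim28 and, through it, the histone methyltransferase Setdb1 and HP1 proteins, so that the bound DNA is packed into silent chromatin. Such KRAB proteins are best known for silencing transposable elements and keeping imprinted regions methylated. Other members have no KRAB domain and act as promoter activators, developmental regulators, ubiquitin ligases or RNA-binding proteins. The deposited table annotates 206 of the 235 genes as zf-C2H2 transcription factors, 2 as ZBTB factors, and gives no transcription factor family for 27. Of the zf-C2H2 genes, 179 were tested.

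Library totals ran from 15715121 to 18369443 counts. Zfp-named genes held 47802 to 76683 counts per library. Differences between replicates, as chi-square per gene relative to counting error, were 4.27 to 17.0 in the other groups and 13.6 to 36.5 among the Phen-DC3 controls, whose replicates 1 and 3 stood farthest apart. The cells' label was checked against marker genes. The disc markers Pax1 and Foxf1 were at 73.7 to 116 and 33.7 to 48.04 CPM (counts scaled to the library total) in all libraries. Of the 17 listed markers, 15 were in the table and 10 were tested. Among these were Hif1a at 163 to 403 CPM, Cd24 at 11.4 to 43.0 CPM, Krt8 at 6.24 to 16.9 CPM and Col2a1 at 9.13 to 24.4 CPM. Sox9 was at 4.94 to 20.8 CPM, Nog at 0.831 to 4.42 CPM and Ca12 at 0.187 to 4.21 CPM. Krt18 and Gpc3 had 0 counts in 15 and 14 libraries. The fibroblast marker Col1a1 was at 1037 to 5964 CPM. The notochordal markers Tbxt, Krt19 and Shh had 0 counts in every library, and Acan, the cartilage proteoglycan, was at 3.44 CPM or less. Of 9 leukocyte markers Ptprc and Cd163 had 0 counts in all libraries, while Cd14 was at 31.1 to 120.04 CPM and Cd68 at 0.786 to 4.63 CPM. The endothelial marker Cdh5 had 0 counts in all libraries, and Tek was at 1.19 CPM or less and Vwf at 0.809 CPM or less.

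As a group the Zfp-named genes were expressed at low levels. Their median over all libraries was 10.1 CPM, against 19.7 CPM for all 14184 tested genes, and per kilobase of gene model (RPKM) it was 3.38 against 8.08. Their mean CPM ran from 0.318 for Zfp423, a regulator of adipocyte commitment, to 166 for Zfp207, and 11 of 206 passed 50 CPM. The gene models were somewhat longer than those of other genes, with a median of 2737.5 against 2248 bp, and 24 of 206 (11.7%) were over 5000 bp, against 10.8% of all tested genes. The standard error of a log2 fold change was larger at these levels, with a median of 0.17 for PDS against 0.13 over all genes.

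Per kilobase, Zfp771 had the highest level, at a mean of 122 RPKM over the 18 libraries. It was followed by Zfp207, a kinetochore protein that protects the mitotic checkpoint factor Bub3, at 95.1 RPKM. Zfp706 followed at 36.9 RPKM and Zfp637 at 26.3 RPKM. Zfp598, the ubiquitin ligase that marks collided ribosomes, stood at 21.96 RPKM, and Zfp91, a ubiquitin ligase of noncanonical NF-kB signalling, at 21.7 RPKM. Zfp771 did not keep its place in all groups. Its group means were 159 RPKM in PDS controls, 149 with PDS, 128 in Phen-DC3 controls and 182 with Phen-DC3. They were 48.8 RPKM in unnamed controls and 66.8 with Braco-19. In unnamed controls Zfp207, at 105 RPKM, therefore stood above Zfp771.

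The first comparison asked which Zfp-named genes changed under PDS. Of these genes, 3 rose and 1 fell, among 206 tested. Over all genes tested, 5.13% were called higher and 2.96% lower, and of Zfp-named genes 1.46% and 0.485%. Their median log2 fold change was 0.04, against 0.02 over all genes, and 113 of 206 were above 0. Mki67, a gene of dividing cells, was at 44.3 ± 7.36 CPM with PDS and at 25.5 ± 5.22 CPM in its controls. The sum of 5 smooth muscle and contractile markers was 2062 to 2251 CPM against 1547 to 1702 CPM, and the summed levels of the other marker lists overlapped. Within that sum Tagln averaged 1827 CPM with PDS and 1303 CPM in controls, Acta2 290 and 283 CPM, and Cnn1 43.2 and 43.7 CPM. Of the 5 markers, 1 was called higher and 0 lower. The part of these differences in the Zfp-named values was not tested. In 27 Zfp-named genes all 3 PDS libraries lay above all 3 controls, where 17.7% of all genes did so, and in 16 they lay below, against 15.6% of all genes.

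Zfp143, an activator of promoters of small nuclear RNA genes and of many housekeeping genes, was at 12.8, 11.6 and 14.5 CPM in the PDS controls and at 16.01, 18.6 and 18.4 CPM with PDS. The groups did not overlap, and the gene rose 1.36-fold (log2 0.45 ± 0.12, adjusted p = 0.0204). Zfp106, an RNA-binding protein reported to bind GGGGCC repeat RNA, was at 57.5, 55.02 and 54.8 CPM in controls and at 66.5, 70.4 and 72.6 CPM with PDS. Every treated library lay above every control, and the rise was 1.25-fold (log2 0.32 ± 0.09, adjusted p = 0.0245). Zfp367 had 29.7, 27.2 and 30.2 CPM in controls and 36.99, 34.4 and 37.6 CPM with PDS. It rose 1.25-fold without overlap (log2 0.32 ± 0.09, adjusted p = 0.0353). Zfp219, described as a partner of the cartilage factor Sox9 in chondrocytes, was the gene that fell. Its level was 56.04, 54.7 and 50.1 CPM in controls and 44.5, 43.5 and 43.2 CPM with PDS, a 1.23-fold fall (log2 -0.29 ± 0.09, adjusted p = 0.0360), and its treated libraries lay close together below all controls. Zfp219 overlaps Arhgef40 on the other strand, and the sources used here do not say whether counting used strand, so reads of the pair may not be told apart.

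**Figure D1:**
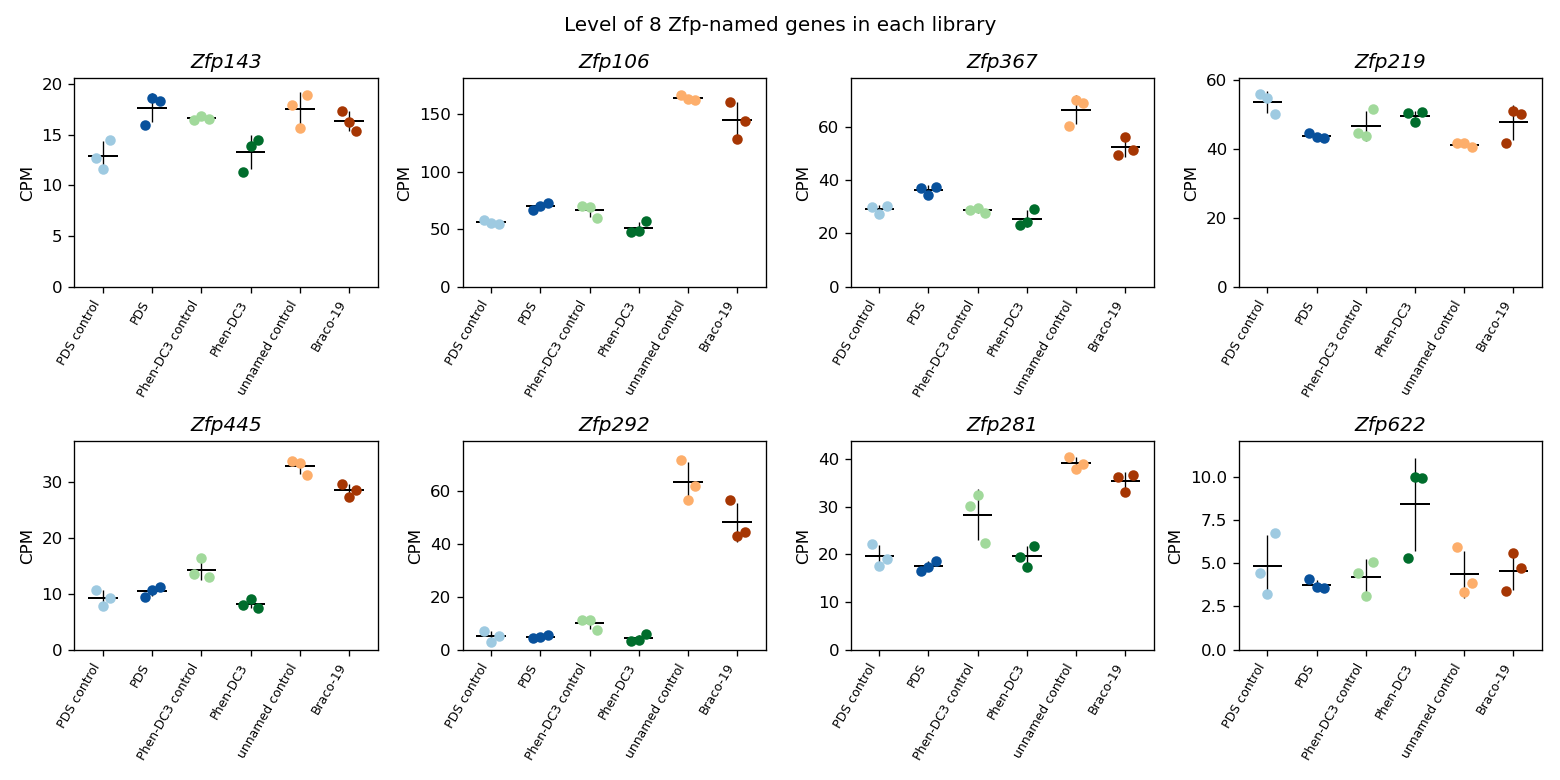
Level of 8 Zfp-named genes in each of the 18 libraries, in CPM on a linear axis from 0, by group. Points are libraries, horizontal lines are means and vertical lines are SD (n = 3). Zfp143, Zfp106 and Zfp367 lie higher with PDS than in its controls, Zfp445, Zfp292 and Zfp281 lie lower with Phen-DC3 than in its controls, and the unnamed control and Braco-19 libraries stand apart from the others for Zfp106, Zfp367, Zfp445 and Zfp292.

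These 4 calls rested on few libraries. None was called in every one of the 6 fits that left out a PDS or PDS control library. No Zfp-named gene was called without PDS control replicate 2, without PDS replicate 2 or without PDS replicate 3, and each of the other omissions left 2 higher and 0 or 1 lower. After correction for a trend of fold change with gene length (described with the Phen-DC3 results), Zfp143 (log2 0.41, adjusted p = 0.0258), Zfp106 (log2 0.24, adjusted p = 0.0263) and Zfp219 (log2 -0.33, adjusted p = 0.0175) were still called and Zfp367 was not (log2 0.27, adjusted p = 0.0548). After this correction 4.86% of all genes were called higher and 3.80% lower.

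The compounds bind runs of guanines, so the 250 bases upstream of the start site of the 3 genes that rose are shown, from RefSeq on the GRCr8 build, 5′ to 3′ in the direction of the gene. Capitals mark runs of 3 or more G or C. The windows are chr1:173543634-173543883 on the plus strand for Zfp143, chr3:127964255-127964504 on the minus strand for Zfp106 and chr17:970646-970895 on the plus strand for Zfp367. None of the 3 holds the motif searched for, which is 4 runs of GGG with gaps of 1 to 7 bases on either strand. A window was kept for 148 of the 206 tested genes, leaving out symbols with more than 1 window or on more than 1 row. Of these, 24 (16.2%) hold the motif, against 14.7% of all 33469 windows of this length. The latter set was not limited to tested genes or to genes with 1 window. Zfp219 was among the genes with no window kept.
Zfp143: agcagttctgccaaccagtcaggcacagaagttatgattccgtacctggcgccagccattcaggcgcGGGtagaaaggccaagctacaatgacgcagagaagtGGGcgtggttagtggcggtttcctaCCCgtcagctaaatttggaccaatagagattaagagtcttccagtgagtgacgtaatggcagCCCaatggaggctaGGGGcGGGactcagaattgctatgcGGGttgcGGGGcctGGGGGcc
Zfp106: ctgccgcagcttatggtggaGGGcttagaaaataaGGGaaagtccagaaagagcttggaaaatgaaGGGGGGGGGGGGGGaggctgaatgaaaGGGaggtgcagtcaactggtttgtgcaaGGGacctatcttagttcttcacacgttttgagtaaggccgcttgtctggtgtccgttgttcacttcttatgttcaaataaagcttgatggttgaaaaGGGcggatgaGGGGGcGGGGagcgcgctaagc
Zfp367: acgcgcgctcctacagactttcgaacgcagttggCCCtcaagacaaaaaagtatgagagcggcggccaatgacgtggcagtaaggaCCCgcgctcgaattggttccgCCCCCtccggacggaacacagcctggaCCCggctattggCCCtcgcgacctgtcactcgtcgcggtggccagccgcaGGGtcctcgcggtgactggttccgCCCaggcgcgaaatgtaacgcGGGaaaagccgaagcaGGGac

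With Phen-DC3, 15 of 206 Zfp-named genes fell and 2 rose. Over all genes, 5.82% were called lower and 2.19% higher, against 7.28% and 0.971% of Zfp-named genes, so the share that fell was near the background. The median log2 fold change of Zfp-named genes was -0.14, against -0.01 over all genes, and 60 of 206 were above 0. All 3 treated libraries lay below all 3 controls in 32 Zfp-named genes, where 11.9% of all genes did so, and above them in 8, against 10.1% of all genes. Mki67 was at 22.0 ± 5.06 CPM with Phen-DC3 and at 39.7 ± 5.76 CPM in its controls. The summed fibroblast markers were at 2841 to 3199.9 CPM against 3302 to 3359 CPM. Among them Col1a1 averaged 1166 against 1413 CPM, and Thy1 went the other way, at 919 against 798 CPM. Of the 8, 2 were called lower and 0 higher. The smooth muscle and contractile markers were higher without overlap, at 1696 to 1992 against 1371 to 1625 CPM, as were the leukocyte markers, nearly all Cd14, at 108 to 118 against 95.5 to 107 CPM. Tagln, the largest part of the contractile sum, averaged 1463 against 1128 CPM, and 0 of the 5 contractile markers were called. The part of these differences in the Zfp-named values was not tested. Among the other genes annotated zf-C2H2, 19 of 200 fell and 0 rose (median log2 -0.27), and among Zbtb-named genes, which pair zinc fingers with a BTB domain, 3 of 36 fell and 0 rose (median log2 -0.09).

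Zfp445, a KRAB protein that helps keep methylation at imprinted regions, had the smallest adjusted p. It was at 13.5, 16.4 and 13.02 CPM in the Phen-DC3 controls and at 7.96, 8.96 and 7.48 CPM with Phen-DC3. The groups did not overlap, and it fell 1.76-fold (log2 -0.81 ± 0.13, adjusted p = 0.0112). Zfp292, a gene with a model of 9966 bp, fell most, from 11.03, 11.1 and 7.48 CPM to 3.27, 3.57 and 5.76 CPM. This was a 2.34-fold fall (log2 -1.23 ± 0.26, adjusted p = 0.0178), and control replicate 3 lay closest to the treated libraries. Zfp106, which rose with PDS, was at 70.2, 69.6 and 59.98 CPM in these controls and at 47.2, 48.7 and 57.02 CPM with Phen-DC3 (log2 -0.39 ± 0.09, adjusted p = 0.0172). Its groups came close, at 59.98 CPM in the lowest control and 57.02 CPM in the highest treated library. It was the only Zfp-named gene called for both PDS and Phen-DC3, among 4 and 17 calls.

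Zfp281 and Zfp148, related factors that bind GC-rich promoters, both fell. Zfp281 went from 30.1, 32.6 and 22.3 CPM to 19.5, 17.4 and 21.9 CPM (log2 -0.53 ± 0.12, adjusted p = 0.0182), with a narrow gap between the groups. Zfp148 went from 31.7, 33.5 and 24.8 CPM to 20.4, 20.7 and 27.1 CPM (log2 -0.40 ± 0.12, adjusted p = 0.0489), and its groups overlapped. Zfp638, a nuclear protein known for silencing unintegrated retroviral DNA, fell from 30.3, 33.4 and 19.04 CPM to 12.6, 13.6 and 18.6 CPM (log2 -0.88 ± 0.23, adjusted p = 0.0357). The lowest control, again replicate 3, was only just above the highest treated library. Others that fell were Zfp142 (log2 -0.56 ± 0.13), the chromatin regulator Zfp462 (log2 -0.54 ± 0.13), Zfp646 (log2 -0.41 ± 0.11), the oncogene Zfp217 (log2 -0.38 ± 0.10) and Zfp266 (log2 -0.43 ± 0.12). The remaining falls lay between log2 -0.83 and -0.44, among them Zfp521, a regulator of blood and skeletal progenitors (log2 -0.44 ± 0.13), Zfp407 (log2 -0.47 ± 0.14) and Zfp318 (log2 -0.57 ± 0.17). All 15 had adjusted p-values of 0.0112 to 0.0489, and in 11 of them the groups did not overlap.

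Zfp622, a factor of ribosomal large subunit maturation, was at 4.42, 3.07 and 5.08 CPM in controls and at 5.31, 9.96 and 9.92 CPM with Phen-DC3. It rose 2.001-fold (log2 1.00 ± 0.29, adjusted p = 0.0430), with treated replicate 1 just above the highest control. Its row spans chromosome 2, 78103387 to 78276927, as the table gives it, on a build that the sources used here do not name, and it contains a Metazoa_SRP row on the same strand, so reads of that RNA may have entered its count. Zfp707 rose from 6.11, 5.83 and 7.24 CPM to 9.38, 8.85 and 9.44 CPM (log2 0.53 ± 0.16, adjusted p = 0.0484), with no overlap.

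Gene length moved with these changes. Genes over 5000 bp held 9.99% ± 0.74 (SD, n = 3) of the counts in Phen-DC3 controls and 7.99% ± 0.52 with Phen-DC3, and across all 14184 genes the Spearman correlation of log2 fold change with length was -0.443, as a description of genes that share libraries. Among Zfp-named genes it was -0.223. Of the 15 that fell, 10 were over 5000 bp. In that length class 10 of 24 Zfp-named genes (41.7%) fell, against 29.6% of other genes of that length. Between 2000 and 5000 bp, 5 of 133 (3.76%) fell, against 5.06% of other genes, and under 2000 bp 0 of 49 fell, against 0.692%. The median log2 fold change of Zfp-named genes under 2000 bp was -0.02, where that of other genes of this length was 0.14.

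**Figure D2:**
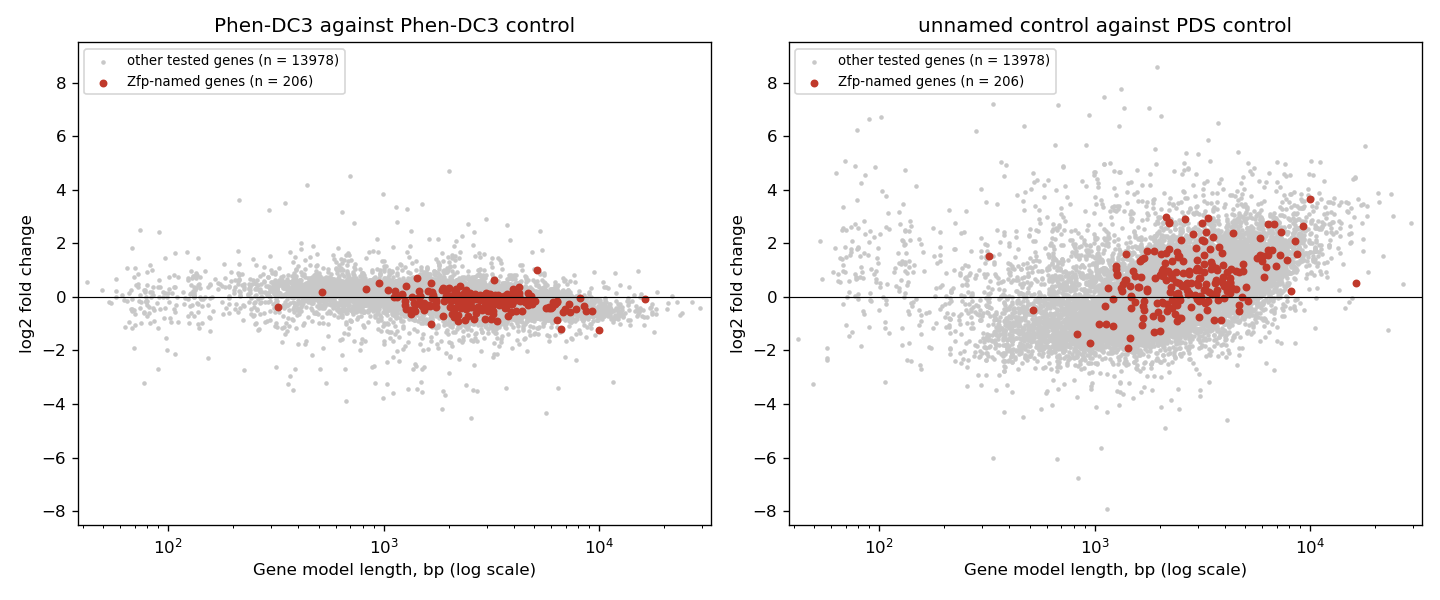
Log2 fold change (vertical) against gene model length in bp on a log scale, for Phen-DC3 against its controls (left) and for the unnamed controls against the PDS controls (right). Red points are the 206 tested Zfp-named genes and grey points the other tested genes; the grey cloud slopes down to the right in the left panel and up in the right panel, and the red points follow it with more of the short genes above it on the right.

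A correction that takes out the trend with length from each library left 1 Zfp-named gene called, Zfp445 (log2 -0.75, adjusted p = 0.0152). After it, 0.155% of all genes were called higher and 0.169% lower. All 17 called genes kept their sign. Zfp292 (log2 -0.76, adjusted p = 0.0907) and Zfp281 (log2 -0.46, adjusted p = 0.0609) missed the threshold, while Zfp462 went to -0.09 and Zfp106 to -0.11. Zfp622 was larger, at 1.21 (adjusted p = 0.0712).

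**Figure D3:**
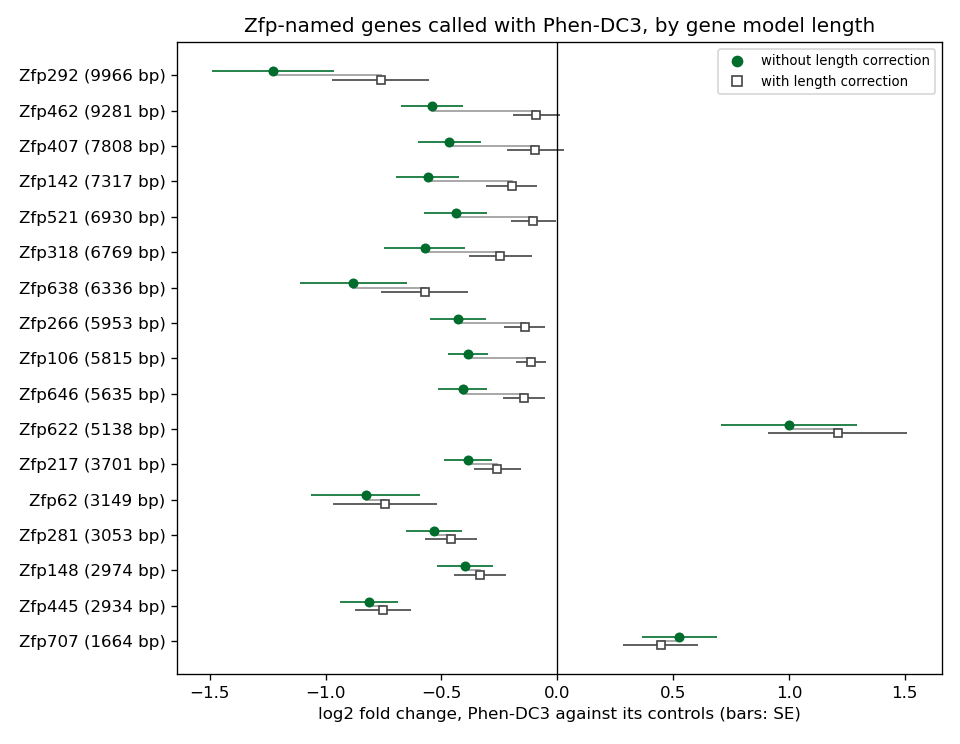
Log2 fold change of the 17 Zfp-named genes called with Phen-DC3, ordered by gene model length, without (filled points) and with (open squares) correction for gene length; bars are SE. The 10 falls in genes over 5000 bp move toward 0, and Zfp445 stays at -0.75.

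The number of calls also depended on single libraries. Without Phen-DC3 control replicate 3, 37 Zfp-named genes were called lower and 7 higher, where 12.9% and 10.0% of all genes were. Without Phen-DC3 replicate 3, 33 were called lower and 1 higher, against 11.1% and 7.27% of all genes. Without any 1 of the other 4 libraries (replicates 1 and 2 of each group), 0 or 1 was called lower and 0 higher. A fit of only these 6 libraries called 0 of either direction, where 1 gene of the whole table was called. Zfp445 was called in 5 of the 6 fits that left out a library, the exception being without Phen-DC3 replicate 1.

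The promoter windows of Zfp445, the call that held after length correction, and of Zfp281, which holds the motif, are shown in the same way. They are chr8:131350750-131350999 on the minus strand and chr13:50647572-50647821 on the plus strand of GRCr8. In Zfp281 the motif is on the other strand, where the runs of C below read as G. Of the 15 genes that fell, 12 had a window kept, and 3 of these (25.0%) hold the motif. The 14.7% of all windows is again over a set not limited in the same way. Zfp622 had no window kept.
Zfp445: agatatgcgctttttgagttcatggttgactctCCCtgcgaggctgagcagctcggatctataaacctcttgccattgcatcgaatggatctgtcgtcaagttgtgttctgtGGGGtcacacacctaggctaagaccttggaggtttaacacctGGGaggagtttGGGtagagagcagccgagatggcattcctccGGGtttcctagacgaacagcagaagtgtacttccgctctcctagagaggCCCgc
Zfp281: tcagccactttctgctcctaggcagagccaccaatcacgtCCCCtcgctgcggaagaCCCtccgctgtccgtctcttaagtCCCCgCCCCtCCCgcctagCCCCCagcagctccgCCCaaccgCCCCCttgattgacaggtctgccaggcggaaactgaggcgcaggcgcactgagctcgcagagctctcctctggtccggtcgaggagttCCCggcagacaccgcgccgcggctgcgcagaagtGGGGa

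With Braco-19, 0 of 206 Zfp-named genes were called in edgeR's test. Over all genes 0.169% were called higher and 0.106% lower. At an unadjusted p under 0.05, 21 Zfp-named genes passed, 10 of them higher, where 18.8% of all genes did. DESeq2 called 0 Zfp-named genes higher and 1 lower, and 198 and 135 of all genes. The median log2 fold change was -0.10, against 0.00 over all genes, and 74 of 206 were above 0. Treated libraries lay below all controls in 41 Zfp-named genes, where 14.4% of all genes did so, and above in 14, against 13.7%. Zfp367, which rose with PDS, had 60.2, 70.3 and 69.1 CPM in unnamed controls and 49.5, 56.3 and 51.3 CPM with Braco-19. Its groups did not overlap, and the difference missed the threshold (log2 -0.35 ± 0.09, adjusted p = 0.102). Zfp503, a developmental repressor, had 28.7, 42.8 and 31.7 CPM in controls and 37.7, 62.4 and 52.3 CPM with Braco-19, with overlapping groups (log2 0.56 ± 0.19, adjusted p = 0.158). A fit of only the 6 libraries compared called 2 Zfp-named genes higher and 7 lower, where 3.21% and 2.58% of all genes were called. Mki67 was at 478 ± 58.6 CPM with Braco-19 and at 611 ± 32.2 CPM in its controls. Without overlap the summed nucleus pulposus markers were at 508 to 521 CPM against 550.5 to 613 CPM, and the leukocyte markers, nearly all Cd14, at 44.1 to 47.7 against 34.6 to 42.4 CPM. Hif1a, the largest part of the nucleus pulposus sum, averaged 296 CPM with Braco-19 and 359 CPM in its controls. Of the 10 tested nucleus pulposus markers, 0 were called. The part of these differences in the Zfp-named values was not tested.

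**Figure D4:**
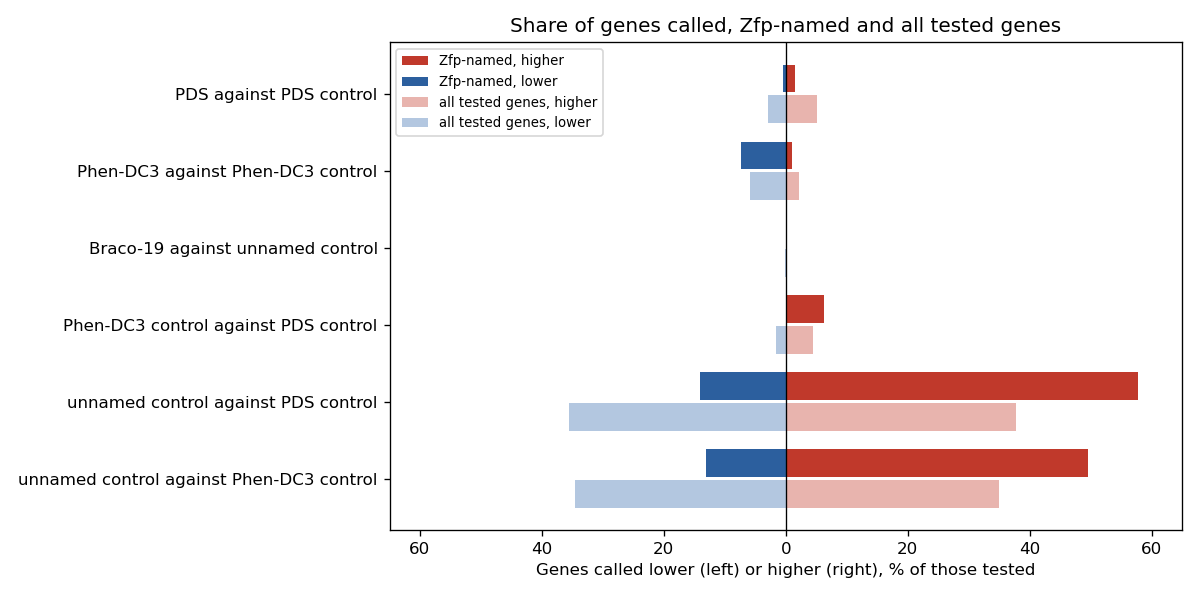
Share of genes called higher (right) or lower (left) in 6 comparisons, as percent of those tested, for the 206 Zfp-named genes (dark bars) and all 14184 tested genes (light bars). The bars are short for the 3 compounds, and in the 2 comparisons with the unnamed controls the Zfp-named genes lean to the higher side (57.8% and 49.5%) more than the table (37.7% and 34.9%).

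Effects of the compounds were then compared with each other, as the difference of each compound's log2 fold change against its own controls, in 3 pairs. Doses are unknown and may not match. PDS and Phen-DC3 differed in 31 Zfp-named genes, 25 with a higher value for PDS and 6 with a lower one, where 12.4% and 7.76% of all genes were called. PDS and Braco-19 differed in 14, of which 12 were higher for PDS and 2 lower, against 7.28% and 6.75% of all genes. Phen-DC3 and Braco-19 differed in 0 by edgeR and by every alternative run, where 0.0494% of all genes were called (0.0141% higher and 0.0353% lower), and 13 Zfp-named genes had an unadjusted p under 0.05, as did 9.48% of all genes. This does not show that these compounds acted alike. For Zfp445 the difference between Phen-DC3 and Braco-19 was -0.61, with a 95% interval of -0.94 to -0.28 (adjusted p = 0.258), and for Zfp106 it was -0.20, with an interval of -0.44 to 0.04 (adjusted p = 0.630).

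Zfp106 differed most firmly between PDS and Phen-DC3, by 0.71 ± 0.12 on the log2 scale (adjusted p = 0.00141), being 0.32 with PDS and -0.39 with Phen-DC3. Zfp445 differed by 0.99 ± 0.18 (adjusted p = 0.00176), with 0.17 for PDS. Zfp143 differed by 0.77 ± 0.17 (adjusted p = 0.00473). It had been higher with PDS, and with Phen-DC3 it was at 11.4, 13.9 and 14.5 CPM against 16.5, 16.9 and 16.5 CPM in controls, which missed the threshold (log2 -0.33 ± 0.12, adjusted p = 0.0802). All 3 differences were called in each of 12 fits that left out a library, and all 3 held after length correction, at 0.35, 0.89 and 0.67. Between PDS and Braco-19, Zfp367 differed by 0.67 ± 0.13 (adjusted p = 0.00304) and Zfp207, the kinetochore protein, by 0.55 ± 0.15 (adjusted p = 0.0218). Zfp207 had 156, 133 and 165 CPM in PDS controls and 169.7, 181 and 202 CPM with PDS. In unnamed controls it had 196, 176 and 181 CPM, and with Braco-19 162, 149 and 146 CPM. Neither change passed the threshold alone, and only their difference did. With length correction the calls went to 9 higher and 8 lower between PDS and Phen-DC3, against 6.80% and 6.40% of all genes, and to 10 and 7 between PDS and Braco-19, against 7.29% and 6.94%.

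The unnamed controls differed from the other control groups in more genes than any treated group did from its controls. In unnamed controls 119 Zfp-named genes were higher and 29 lower than in PDS controls, which is 57.8% and 14.1% of those tested, where 37.7% and 35.6% of all genes were called. The median log2 fold change was 0.54, against 0.02 over all genes. Against Phen-DC3 controls, 102 were higher and 27 lower, where 34.9% and 34.6% of all genes were called, with a median of 0.41 against 0.00. All 3 unnamed control libraries lay above all 3 PDS controls in 125 Zfp-named genes and below them in 33, against 39.6% and 37.4% of all genes. They lay above all 3 Phen-DC3 controls in 108 and below them in 31, against 36.4% and 34.8%. Both comparisons share the unnamed control libraries. Zfp-named genes held 0.440% ± 0.002 of all counts in unnamed controls and 0.426% ± 0.008 with Braco-19, against 0.299% ± 0.009 in PDS controls and 0.323% ± 0.013 in Phen-DC3 controls (SD, n = 3).

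**Figure D5:**
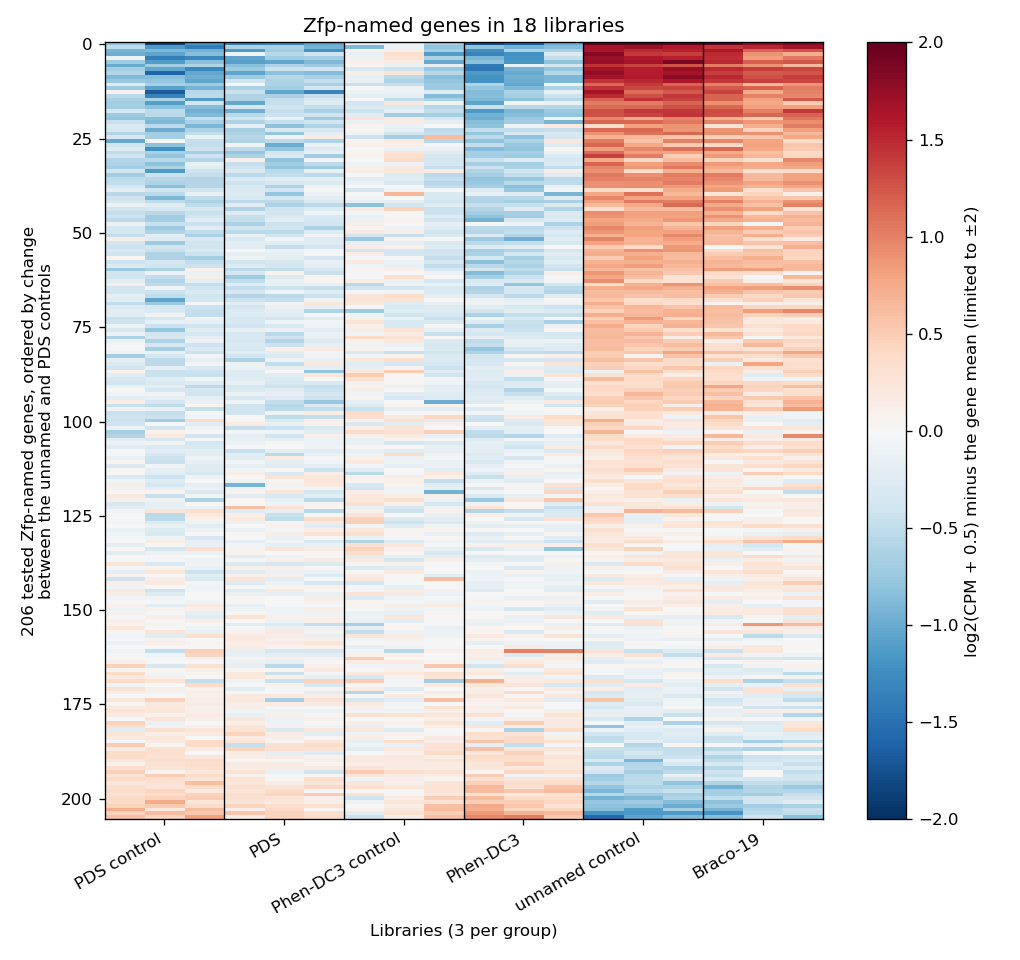
Level of the 206 tested Zfp-named genes (rows, ordered by change between unnamed and PDS controls) in the 18 libraries (columns, 3 per group), as log2(CPM + 0.5) minus the gene's mean, with the colour scale cut at its ends. The unnamed control and Braco-19 columns share 1 pattern and the other 12 columns the reverse of it, with Phen-DC3 control replicates 1 and 2 paler than the columns beside them.

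Zfp462 was at 11.7, 11.96 and 10.8 CPM in PDS controls and at 70.3, 66.7 and 77.5 CPM in unnamed controls, 6.22-fold higher (log2 2.64 ± 0.13, adjusted p = 4.3e-13). Zfp318 was 6.66-fold higher, Zfp142 5.35-fold, Zfp609, which binds the cohesin loader Nipbl and the Integrator complex, 4.28-fold, and Zfp106 2.94-fold. Zfp592, part of a chromatin complex with Zfp687, Zfp532 and Zmynd8, was 2.94-fold higher. All 6 were models over 5000 bp. The gap between groups was wide in each: Zfp106, for example, was at 166, 164 and 162 CPM in unnamed controls, against no more than 57.5 CPM in PDS controls. None of the 29 lower genes was over 5000 bp, and 15 were under 2000 bp. Zfp688 was at 19.3, 20.3 and 18.1 CPM in PDS controls and at 7.71, 7.65 and 6.80 CPM in unnamed controls, 2.60-fold lower (log2 -1.38 ± 0.15, adjusted p = 4.1e-08). Zfp511 was 2.10-fold lower, Zfp524 2.03-fold, Zfp637 2.03-fold, Zfp358 1.74-fold and Zfp523, a relative of Zfp143, 1.72-fold. Against Phen-DC3 controls, Zfp462 was 4.63-fold higher and Zfp367 2.32-fold.

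Here too length moved with the groups. Genes over 5000 bp held 25.3% ± 0.18 of counts in unnamed controls and 24.2% ± 0.95 with Braco-19, against 8.66% ± 0.59 in PDS controls. In that length class 23 of 24 Zfp-named genes (95.8%) were higher in unnamed than in PDS controls and 0 lower, against 84.4% and 4.46% of other genes. Between 2000 and 5000 bp, 58.6% were higher and 10.5% lower, against 45.8% and 26.1% of other genes. Under 2000 bp, 18 of 49 Zfp-named genes (36.7%) were higher and 15 (30.6%) lower, where 17.1% and 54.0% of other genes of that length were. The median there was 0.23, against -0.57 for other genes. After length correction 101 Zfp-named genes were called higher and 45 lower, against 32.0% and 35.3% of all genes, and their median was 0.34, against -0.04 over all genes. Against Phen-DC3 controls 86 were then higher and 41 lower, where 29.5% and 33.3% of all genes were called. Zfp318 kept a log2 difference of 1.34 and Zfp142 of 0.89, while Zfp592 went to 0.04 (adjusted p = 0.617) and Zfp521 changed sign, from 1.13 to -0.31 (adjusted p = 0.00723). Without length correction, 131 of 200 other zf-C2H2 genes were higher and 20 lower in unnamed than in PDS controls, with a median of 0.97. Of 36 Zbtb-named genes 20 were higher and 5 lower, where 37.7% and 35.6% of all genes were called. With the correction, 117 of the other zf-C2H2 genes were higher and 30 lower (median 0.65), and 18 and 7 of the Zbtb-named genes.

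Markers of other states differed between the same control groups. Mki67 was at 611 ± 32.2 CPM in unnamed controls and at 25.5 ± 5.22 CPM in PDS controls, and Fn1, which encodes fibronectin, was at 78017 ± 556 and 8813 ± 1419 CPM. The summed level of 8 fibroblast markers was 6126 to 7312 CPM in unnamed controls and 2889 to 3289 CPM in PDS controls, with none of them at 0. Among them Col1a1 averaged 4855 against 1356 CPM, and Thy1 went the other way, at 560 against 935 CPM. Of the 8, 5 were called higher and 1 lower. The sum of 5 smooth muscle and contractile markers was 445 to 657 CPM against 1547 to 1702 CPM. Tagln, its largest part, averaged 431 against 1303 CPM. Of these 5 markers, 1 was called higher and 3 lower. Of 9 leukocyte markers 2 were at 0 in every library, and their sum, nearly all Cd14, was 34.6 to 42.4 CPM against 108 to 114 CPM. The summed nucleus pulposus markers were at 550.5 to 613 against 358 to 416 CPM, and 5 endothelial markers at 1.12 to 1.87 against 0.177 to 0.484 CPM, with Cdh5 at 0. Hif1a, the largest part of the nucleus pulposus sum, averaged 359 against 198 CPM, and Cd24 went the other way, at 13.7 against 37.3 CPM. Of the 10 tested nucleus pulposus markers 5 were called higher and 4 lower. Over all genes 37.7% and 35.6% were called. The part of these differences in the Zfp-named values was not tested. In bulk libraries, fewer cells of a type and less RNA per cell cannot be told apart.

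The Phen-DC3 controls were also compared with the PDS controls. Of 206 Zfp-named genes 13 were higher and 0 lower, where 4.50% and 1.59% of all genes were called. The median log2 difference was 0.16, against 0.01 over all genes. Mki67 was at 39.7 ± 5.76 CPM in Phen-DC3 controls and at 25.5 ± 5.22 CPM in PDS controls. Also without overlap, the summed nucleus pulposus markers were at 435 to 516 against 358 to 416 CPM, the fibroblast markers at 3302 to 3359 against 2889 to 3289 CPM and the leukocyte markers at 95.5 to 107 against 108 to 114 CPM. Hif1a, the largest part of the nucleus pulposus sum, averaged 289 against 198 CPM. Of the 10 tested nucleus pulposus markers, 1 was called higher and 0 lower. The part of these differences in the Zfp-named values was not tested. Zfp445 was at 13.5, 16.4 and 13.02 CPM in Phen-DC3 controls and at 10.7, 7.72 and 9.22 CPM in PDS controls, 1.55-fold higher (log2 0.64 ± 0.12, adjusted p = 0.0162). Zfp281 (1.45-fold), Zfp189 (1.68-fold), Zfp800 (1.60-fold), Zfp638 (2.02-fold) and Zfp131 (1.41-fold) were higher as well. These 6 were also called after length correction, which called 2.02% of all genes higher and 1.30% lower. This comparison uses the same Phen-DC3 control libraries as the Phen-DC3 comparison, and the values stand side by side. Zfp445 with Phen-DC3, at 7.96, 8.96 and 7.48 CPM, overlapped its level in PDS controls, and so did Zfp638, at 12.6, 13.6 and 18.6 CPM with Phen-DC3 and 18.5, 8.95 and 13.5 CPM in PDS controls. Zfp281 did likewise, at 19.5, 17.4 and 21.9 and 22.2, 17.6 and 18.99 CPM. Without Phen-DC3 control replicate 3, 40 Zfp-named genes were called higher and 5 lower, where 11.6% and 7.33% of all genes were. Without PDS control replicate 2 or Phen-DC3 control replicate 2, 0 were called higher, without Phen-DC3 control replicate 1, 1, and without PDS control replicate 3, 3. A fit of only these 6 libraries called 0.

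Members were also grouped into role lists. The lists were chosen with earlier results of these data known, so their counts only describe the listed genes. Counts in each list stand beside the 5.13% of all genes called higher and 2.96% lower with PDS, and 2.19% and 5.82% with Phen-DC3. Among 8 tested genes of translation, ribosomes and RNA, Zfp106 rose with PDS, and Zfp106 and Zfp638 fell and Zfp622 rose with Phen-DC3. The others, such as Zfp598 (log2 0.00 ± 0.07 with PDS and 0.01 ± 0.07 with Phen-DC3) and Zfp346 (0.12 ± 0.10 and 0.12 ± 0.10), did not pass. Among 6 genes listed under mitosis and the cell cycle, Zfp367 rose with PDS and Zfp318 fell with Phen-DC3. Neither was called after length correction. Among 11 genes of mesenchymal, cartilage and tissue development, Zfp219 fell with PDS, and Zfp462, Zfp521 and Zfp407 fell with Phen-DC3. Zfp423, with too few counts for a close estimate, had a log2 value of -0.62 ± 0.76 with PDS. Among 10 factors of GC-rich promoters and stem cells, Zfp143 rose with PDS, and Zfp281, Zfp148 and Zfp217 fell with Phen-DC3. Zfp57, the other KRAB protein of imprint maintenance, had -0.04 ± 0.13 with PDS and -0.14 ± 0.13 with Phen-DC3 and did not pass. Of 11 chromatin and signalling cofactors 0 passed for any compound, and all 11 were higher in unnamed than in PDS controls, where 37.7% of all genes were, Zfp618, a partner of the methylcytosine reader Uhrf2, by 4.35-fold and Zfp91 by 2.35-fold. After length correction 6 of the 11 were called higher and 1, Zfp746, was called lower (log2 -0.23, adjusted p = 0.0384), where 32.0% and 35.3% of all genes were.

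The proteins through which KRAB zinc fingers act were read from a list of 24 symbols, of which 21 were in the table and tested. This list, too, was chosen with earlier results of these data known. With PDS and with Braco-19, 0 of 21 were called. With Phen-DC3, 4 fell and 0 rose, where 5.82% of all genes were called lower. These were Atrx, a chromatin remodeller that also acts at G-quadruplex-rich repeats (log2 -1.02 ± 0.21, adjusted p = 0.0155), Chd4, the remodeller of the NuRD complex (log2 -0.31 ± 0.07, adjusted p = 0.0160), Atf7ip, which stabilises Setdb1 (log2 -0.51 ± 0.12, adjusted p = 0.0210), and Morc2, a partner of the HUSH silencing complex (log2 -0.29 ± 0.09, adjusted p = 0.0451). After length correction 0 were called. The list's median log2 fold change was 0.11 with PDS, -0.16 with Phen-DC3 and -0.09 with Braco-19, against 0.02, -0.01 and 0.00 over all genes. In unnamed controls 16 of 21 were higher than in PDS controls and 1, Hdac1, was lower, where 37.7% and 35.6% of all genes were called. Trim28 itself was among the higher genes with a small difference, log2 0.18 ± 0.07 (adjusted p = 0.0327), and Setdb1 was higher by 1.00 ± 0.10. After length correction 13 of 21 were called higher and 4 lower, where 32.0% and 35.3% of all genes were. Trim28 (log2 -0.04, adjusted p = 0.646) and Setdb1 (log2 0.14, adjusted p = 0.159) were then not called. Chd3 changed sign, from 0.68 to -0.78.

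By position, 60 of the 235 genes lie on chromosome 1, 20 on chromosome 10, 17 on chromosome 7, 16 on chromosome 4 and 14 on chromosome 8, and 21 chromosomes hold at least 1. Of the 52 tested on chromosome 1, Zfp143 rose with PDS and 1, Zfp646, fell with Phen-DC3. Of 52 there, 26 were higher and 10 lower in unnamed than in PDS controls (median log2 0.50), and of 14 on chromosome 8, 12 were higher and 1 lower (median 1.02), where 37.7% and 35.6% of all genes were called. Chromosome 8 did not stand alone: of 11 on chromosome 18, 9 were higher and 0 lower (median 1.02), and of 10 on chromosome 5, 8 and 2 (median 1.33). Chromosomes 6 and 15 had medians of -0.16 and -0.02. These values are without length correction. Positions of the called genes, as the table gives them, are chromosome 1, 174702373 to 174738126 for Zfp143, chromosome 3, 112283112 to 112320762 for Zfp106, chromosome 17, 1652895 to 1672021 for Zfp367, chromosome 15, 28402415 to 28406046 for Zfp219 and chromosome 8, 131888047 to 131899023 for Zfp445. Of the tested genes, 34 overlap another row of the table, Zfp445 among them (a U6 row on its own strand). Many KRAB zinc finger genes lie in clusters of similar copies, and reads shared between copies may have been split or lost in counting, which makes values of the clustered genes uncertain.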

How the data were processed

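RNA was sequenced in 18 libraries of cultured rat nucleus pulposus cells, 3 per group, with groups taken from the sample titles. The authors deposited raw counts per gene, not normalised, and a gene model length in bp. CASAVA, HISAT2 (no version) and featureCounts 1.5.0-p3 are named per the submitters' processing notes; genome build, annotation release and strandedness: not given in the sources used here. The analysis used edgeR 4.0.16 in R 4.3.3. The filterByExpr function, run by group, kept 14184 genes with enough counts, and can keep a gene through the group where it is high. TMM factors scaled the libraries. All libraries entered 1 quasi-likelihood fit, robust, with a mean for each group and 12 residual degrees of freedom. Comparisons used its two-sided F-test, with Benjamini-Hochberg adjustment over all tested genes and a threshold of 0.05; genes past it are described as called, higher, lower, risen or fallen. Values after ± are SE for log2 fold changes and SD for CPM and shares (n = 3). CPM used TMM-scaled library sizes. The labels name no molecular identifiers, so copies of 1 molecule can be counted repeatedly.

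For the length correction, the trend of each library's log2 deviation with log2 length (lowess, span 0.4, pseudocount of 0.5) entered the model as an offset. Other alternatives were RLE and upper-quartile scaling, no filter, a filter of 1 CPM in 3 libraries, DESeq2 1.42.0, only the libraries compared, a replicate block, and leaving out each library. The fits were tested on simulated data. The members, role lists, partner list and named genes (for each compound the 10 smallest adjusted p-values each way, for each control comparison 6, for each difference between compounds 4, the 6 highest levels per length, and role list members) were chosen with earlier results of these data known. Deviations of samples with the same replicate number were correlated weakly or negatively, so the numbers were not used to pair libraries. This cannot exclude a pairing.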

Additional observations from a re-analysis of the deposited data

Results flagged for a closer look

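These results were singled out because the effects of 2 compounds, each against its own controls, differed by the test of the difference itself in edgeR, among the 4 smallest adjusted p-values each way. Values are differences of log2 fold changes with SE.

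Between PDS and Phen-DC3, 4 genes had the higher value with PDS. Zfp106 differed by 0.71 ± 0.12 (adjusted p = 0.00141), Zfp445 by 0.99 ± 0.18 (adjusted p = 0.00176), Zfp142 by 0.93 ± 0.19 (adjusted p = 0.00388) and Zfp143 by 0.77 ± 0.17 (adjusted p = 0.00473). The separate effects of Zfp142 were 0.37 and -0.56 for PDS and Phen-DC3. All 4 were called in each of the 12 fits that left out a library and after length correction. With that correction the difference of Zfp142 was 0.46 (adjusted p = 0.0483) and that of Zfp106 was 0.35. Zfp142 was no longer called with the replicate block and length correction together. Another 4 genes had the lower value with PDS. The ribosome factor Zfp622 differed by -1.35 ± 0.42 (adjusted p = 0.0297), Zfp428 by -1.04 ± 0.32 (adjusted p = 0.0302), the Sox9 partner Zfp219 by -0.38 ± 0.12 (adjusted p = 0.031) and Zfp523 by -0.34 ± 0.11 (adjusted p = 0.0346). The separate effects were -0.35 and 1.00 for Zfp622 and -0.32 and 0.72 for Zfp428. These 4 were called in 5 or 6 of the 12 fits that left out a library. Zfp428 overlaps a row on the other strand, and Zfp622 contains another row.

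Between PDS and Braco-19, Zfp367 differed by 0.67 ± 0.13 (adjusted p = 0.00304), Zfp106 by 0.51 ± 0.12 (adjusted p = 0.0112), Zfp207 by 0.55 ± 0.15 (adjusted p = 0.0218) and Zfp618 by 0.68 ± 0.20 (adjusted p = 0.0261), all higher with PDS. Zfp219 differed by -0.50 ± 0.12 (adjusted p = 0.0111) and Zfp503 by -0.92 ± 0.27 (adjusted p = 0.0343), both lower with PDS. The separate effects of Zfp618 were 0.42 and -0.26 and those of Zfp503 were -0.36 and 0.56, none of which passed the threshold alone. Zfp367, Zfp106 and Zfp219 were called in each of 12 fits that left out a library, Zfp207 in 7, Zfp618 in 5 and Zfp503 in 3. The PDS libraries enter both comparisons, so the results of Zfp106 and Zfp219 in them are not independent.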

How the results depend on the processing

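Under length correction 3 of the named gene results changed direction, all in unnamed against PDS controls: Zfp521 went to -0.31, Zfp746 to -0.23 and Zfp687 to -0.0587 (log2), and to -0.31, -0.23 and -0.0612 with the replicate block as well. Over all called Zfp-named genes, length correction with or without the block turned the sign of 15 of 119 higher and 3 of 29 lower in unnamed against PDS controls, and of 12 of 102 and 3 of 27 against Phen-DC3 controls. In the other comparisons and alternatives, 0 of the called Zfp-named genes changed sign. With DESeq2, 5 Zfp-named genes were higher with PDS, 4 higher and 23 lower with Phen-DC3, 1 lower with Braco-19, and 20 higher in Phen-DC3 than in PDS controls. Over all genes DESeq2 called 811 higher and 592 lower with PDS, 794 and 1262 with Phen-DC3, 198 and 135 with Braco-19. Between these controls it called 1029 and 577. Fits of only the libraries compared gave 5 higher and 2 lower for PDS, 0 and 0 for Phen-DC3, 2 and 7 for Braco-19 and 0 higher between Phen-DC3 and PDS controls. Over all genes these fits called 987 higher and 1066 lower for PDS, 1 and 0 for Phen-DC3, 433 and 348 for Braco-19. Between these controls they called 1 and 2. Such fits gave 20 differences in Zfp-named genes between PDS and Phen-DC3 and 27 between PDS and Braco-19. Counts over all genes for these 2 differences are not given here, so the numbers cannot be set against a background. Upper-quartile scaling and no count filter each left 1 higher for Phen-DC3, where 296 and 253 of all genes were called higher. Upper-quartile scaling moved the median of all genes in unnamed against Phen-DC3 controls from 0.00 to -0.11 (log2), with 89 Zfp-named genes higher and 34 lower. Over all genes 4388 were then higher and 5485 lower. Length correction left 0 higher and 1 lower for Phen-DC3, 6 higher and 1 lower in Phen-DC3 against PDS controls, 45 lower in unnamed against PDS controls, 41 lower against Phen-DC3 controls, and 17 differences between PDS and Phen-DC3. In each of these the fold changes were shifted by length, and the cause of the trend was not tested.

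The replicate numbers were not used to pair the libraries. Deviations of same-numbered libraries correlated at -0.25 to 0.07 in 9 pairs. The same-numbered library was the best match for each Braco-19 replicate and for PDS replicate 2, and not for the others. With so few libraries this cannot exclude a pairing. With the number as a replicate block, PDS had 0 lower and Phen-DC3 1 higher and 8 lower. Over all genes, 370 were then lower with PDS, and 172 higher and 562 lower with Phen-DC3. With the replicate block and length correction together, Phen-DC3 had 0 higher and 1 lower, where 9 and 8 of all genes were called. Phen-DC3 against PDS controls had 4 higher and 1 lower, where 217 and 119 of all genes were called. In unnamed against PDS controls 44 were lower, as were 4979 of all genes, and PDS and Phen-DC3 differed in 14 Zfp-named genes. For that difference the count over all genes is not given here.

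Leaving out 1 library gave 0 to 2 higher and 0 to 1 lower for PDS, 0 to 7 higher and 0 to 37 lower for Phen-DC3, and 0 to 1 higher for Braco-19 (1 without Braco-19 replicate 1). It gave 0 to 40 higher and 0 to 5 lower in Phen-DC3 against PDS controls, 112 to 119 higher and 27 to 28 lower in unnamed against PDS controls, and 92 to 99 higher and 24 to 28 lower against Phen-DC3 controls. The 7, 37, 40 and 5 came without Phen-DC3 control replicate 3. In that fit 10.0% of all genes were called higher and 12.9% lower for Phen-DC3, and 11.6% and 7.33% between Phen-DC3 and PDS controls. Differences ran from 12 to 49 between PDS and Phen-DC3 and from 3 to 20 between PDS and Braco-19. The lowest numbers came without Phen-DC3 replicate 1 and without PDS control replicate 2. For the other fits behind these ranges, no counts over all genes stand beside the numbers here, so they cannot be set against a background. Of 75 named gene results that were called, 34 stayed called in the same direction under every alternative, and 41 under all that kept every library. All 34 came from comparisons with the unnamed controls or from differences between compounds. None was a call of PDS or Phen-DC3 against its own controls, or of Phen-DC3 against PDS controls. Of 127 not called, 107 stayed so. Depth limits the low genes most, since 6 tested Zfp-named genes had a mean under 1 CPM.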
